A study of Mus musculus with 6 samples.

Results

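Macrophage genes were read in RNA of sorted spermatogonia, the germ cells that maintain sperm production. The 9 genes Csf1r, Adgre1, Cd68, Cd163, Mrc1, C1qa, C1qb, C1qc and Lyz2 were chosen by name as established markers of macrophages, from the 53657 gene names counted in every sample. RNA-seq libraries came from 6 samples of adult mouse testis, 3 WT and 3 MUT, isolated 3 months after tamoxifen. All mice carried Gfra1-creERT2, a tamoxifen-activated Cre recombinase driven by a promoter of early spermatogonia, and a tdTomato reporter that marks cells in which Cre has acted. MUT mice also carried the FR-Hras G12V allele, which recombination turns into a heterozygous Hras G12V mutation, and WT mice were littermates without that allele, on a mixed background of C57BL/6J, 129/Sv and Swiss Black. Undifferentiated type A spermatogonia (A_undiff) were sorted from dissociated testes as MCAM-bright, tdTomato+ cells. MCAM is also made by somatic cells of the testis. However, the tdTomato gate should leave macrophages out, since the study holds the Gfra1 promoter to be silent in testicular somatic cells. Which cells carried the RNA described below was not tested, and in bulk samples fewer cells of a type and less RNA per cell cannot be told apart.

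Macrophages are the most numerous immune cells of the testis, where they lie between and along the seminiferous tubules. Their survival depends on signalling through the CSF1 receptor, which CSF1 and IL-34 bind. They are recognised by the F4/80 antigen and by scavenger and lectin receptors such as CD163 and CD206, and they secrete complement C1q and lysozyme.

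The 9 genes were detected in every sample, at levels that ran from near the middle of the transcriptome to its top percentiles. Levels are given per length as RPKM (counts scaled by exon length and by TMM-adjusted library size), the scale used here to compare genes with each other. Fragments shared with an overlapping gene (Csf1r) or a near-identical copy (Lyz2) were not counted, which can lower the RPKM of these genes. Lyz2, which encodes the lysozyme of macrophages and granulocytes, had the highest level, 226.7 RPKM over the 6 samples, and exceeded 99.64% of the 19656 genes tested. C1qa and C1qb, which encode chains of the complement recognition protein C1q, followed at 128.5 and 122.5 RPKM, above 99.03% and 98.95% of the tested genes. The third chain, C1qc, stood at 69.47 RPKM. Csf1r, the receptor gene, reached 40.28 RPKM and Cd68, a glycoprotein of lysosomal membranes, 32.78 RPKM. Mrc1, the gene of the mannose receptor CD206, had 17.95 RPKM and Adgre1, the gene of F4/80, 13.17 RPKM. Cd163, the haemoglobin scavenger receptor, was the lowest at 3.594 RPKM, under the median of 3.903 RPKM for all tested genes. The ranges over 6 samples of neighbours in this order overlapped for Lyz2 and C1qa, for C1qa and C1qb, for Csf1r and Cd68, and for Mrc1 and Adgre1, so that these pairs were not separated beyond their spread over samples. Within each of the 6 samples, however, Lyz2 exceeded C1qa, Csf1r exceeded Cd68 and Mrc1 exceeded Adgre1, whereas C1qa exceeded C1qb in 3 of the 6.

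**Figure D1:**
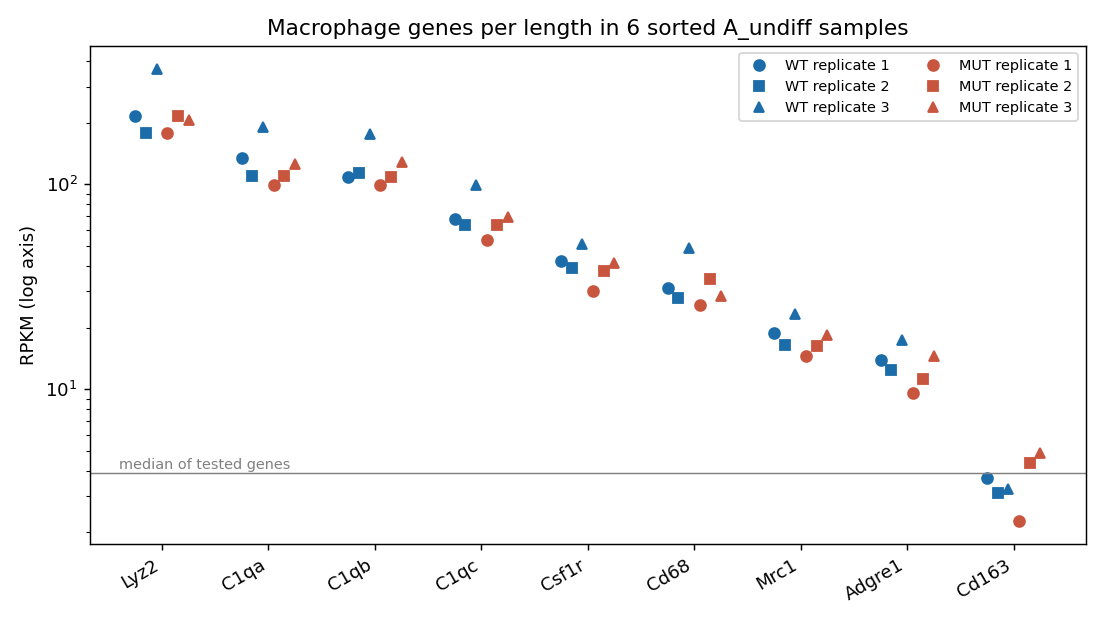
Level of each macrophage gene per length (RPKM, log axis) in each of the 6 samples, ordered by mean. Circles, squares and triangles are replicates 1, 2 and 3, blue for WT and red for MUT, and the grey line is the median of 3.903 RPKM over the 19656 tested genes; Lyz2 and the C1q genes lie far above it and Cd163 lies around it.

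Together the 9 genes took between 0.0846% and 0.166% of all counts in a library. Their summed level was 1102, 985 and 1598 CPM (counts scaled by TMM-adjusted library size only) in WT replicates 1, 2 and 3, and 867, 1031 and 1103 CPM in MUT replicates 1, 2 and 3. WT replicate 3 was the highest and MUT replicate 1 the lowest, and the other 4 samples lay between 985 and 1103 CPM. The WT mean was 1228 ± 325.5 CPM (SD, n = 3), and the MUT mean, with an SD of 121.1 CPM (n = 3), was 0.814 times as high. That ratio became 0.959 without WT replicate 3.

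No macrophage gene passed the test between MUT and WT. With edgeR's quasi-likelihood test and a false discovery rate of 0.1, 0 of the 9 genes were called (0 also at an unadjusted p under 0.05), against a background of 2 genes of 19656, or 0.0102%. DESeq2 and limma voom also called 0 of the 9, and C1qa alone had an unadjusted p under 0.05 in DESeq2. Each of the 9 genes had overlapping values in the 2 groups. Among all tested genes, 3.0% had every MUT sample below every WT sample and 4.69% had every MUT sample above. At such shares, overlap in all 9 genes does not set them apart. The fitted value was lower in MUT for 8 of the 9 genes, with a median log2 fold change of -0.28 beside 0.01 over all tested genes. Both values rested on WT replicate 3: without it, 5 of the 9 genes had a lower fitted value in MUT and the median was -0.08. Without MUT replicate 1 the count was again 8 and the median -0.19. Group differences for single genes were also examined by an exact two-sided permutation test over the 20 assignments of samples, in which 3 against 3 samples cannot give a p below 0.1.

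**Figure D2:**
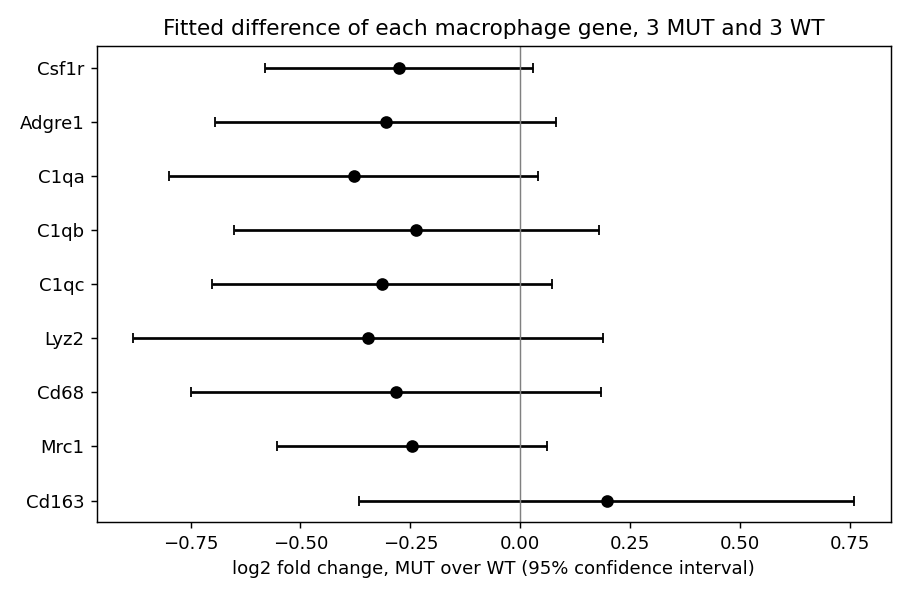
Fitted log2 fold change of each macrophage gene, MUT over WT, with its 95% confidence interval from edgeR (3 samples per group). The interval includes 0 for all 9 genes, and the point lies below 0 for all of them except Cd163.

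Csf1r and Adgre1 represent the macrophage surface. Csf1r (chromosome 18, 61105572 to 61132149, plus strand, GRCm38) measured 206, 191 and 249 CPM in the WT replicates and 148, 185 and 201 CPM in the MUT replicates. The groups overlapped, since MUT replicate 3 stood above WT replicate 2. The log2 fold change was -0.27 ± 0.13 (SE), with an adjusted p of 0.998 in edgeR, an exact permutation p of 0.2 and a 95% interval from 0.669-fold to 1.02-fold. The 3′ end of Csf1r overlaps Hmgxb3, a gene on the minus strand, over 871 bases, and fragments that touched both genes were left out because the counting ignored strand, so that the Csf1r level leaves out part of its last exon. Adgre1 (chromosome 17, 57358686 to 57483529, plus strand) showed the same order of samples at its extremes, with 45.3, 40.1 and 56.4 CPM in WT and 31.1, 36.4 and 47.1 CPM in MUT. Its log2 fold change was -0.31 ± 0.17 (SE), with an adjusted p of 0.998 in edgeR and an exact permutation p of 0.3.

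The 3 C1q chains assemble into one protein, and their genes lie within 18675 bases of chromosome 4, all on the minus strand, as C1qb (136880129 to 136886187), C1qc (136889804 to 136893065) and C1qa (136895917 to 136898803). C1qa measured 139.6, 115 and 199 CPM in WT and 104, 114 and 131 CPM in MUT. C1qb measured 118, 124 and 191 CPM in WT and 109, 119 and 140.0 CPM in MUT. C1qc measured 131, 123 and 192 CPM in WT and 103, 122 and 133 CPM in MUT. In each chain WT replicate 3 stood well above the other 5 samples, which overlapped between groups. C1qa had a log2 fold change of -0.38 ± 0.18 (SE), the largest of the 9 genes with all samples, with an adjusted p of 0.998 in edgeR and a 95% interval from 0.575-fold to 1.03-fold. Without WT replicate 3 it was -0.13, smaller in size than the -0.16 of Csf1r and of Adgre1, and C1qc was at -0.08 and Mrc1 at -0.10. The values were -0.24 ± 0.18 for C1qb and -0.31 ± 0.17 for C1qc (SE, adjusted p 0.998 for both in edgeR), and the exact permutation p was 0.2, 0.6 and 0.4 for C1qa, C1qb and C1qc.

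The count ratios between the C1q chains varied less across the 6 samples than their levels did, a contrast that leaned on WT replicate 3. Counts of C1qa over C1qb lay between 0.927 and 1.19, those of C1qc over C1qb between 0.950 and 1.11, and those of C1qa over C1qc between 0.933 and 1.07. The highest ratio was 1.28, 1.17 and 1.14 times the lowest for these pairs, whereas the CPM of the chains varied 1.92-fold for C1qa, 1.76-fold for C1qb and 1.86-fold for C1qc between samples. Apart from WT replicate 3, C1qa lay between 104 and 139.6 CPM, C1qb between 109 and 140.0 CPM and C1qc between 103 and 133 CPM. Without that sample, Pearson's r fell from 0.914 to 0.546 for C1qa with C1qb. It fell from 0.959 to 0.774 for C1qb with C1qc and from 0.976 to 0.882 for C1qa with C1qc.

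Lyz2 and Cd68 mark the granules and lysosomes of macrophages. Lyz2 (chromosome 10, 117277331 to 117282321, minus strand) measured 283, 235 and 484 CPM in WT and 235, 283 and 270.2 CPM in MUT. The WT mean of 334 ± 132 CPM rested on replicate 3, and the 2 other WT replicates lay within the range of MUT (263 ± 24.9 CPM, SD, n = 3). The log2 fold change was -0.35 ± 0.23 (SE), with an adjusted p of 0.998 in edgeR and an exact permutation p of 0.5, and it was 0.02 without WT replicate 3. Cd68 (chromosome 11, 69664213 to 69666153, minus strand) measured 39.1, 35.2 and 61.4 CPM in WT and 32.3, 43.4 and 35.9 CPM in MUT. Its log2 fold change was -0.28 ± 0.20 (SE), with an adjusted p of 0.998 in edgeR and an exact permutation p of 0.6, and it was 0.0020 without WT replicate 3. C1qb was the third gene whose direction rested on that sample, with a log2 fold change of 0.02 without it.

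Lyz2 has a close neighbour copy, Lyz1, the lysozyme of Paneth cells, which lies next to it on chromosome 10 (117287797 to 117292868, minus strand). Their coding sequences of 444 bases are identical at 422 positions, and of 1267 windows of 50 bases, the read length, in the Lyz2 transcript 195 (15.4%) also occur in Lyz1. Such windows cannot be assigned to either gene. The longest run that both coding sequences share has 118 bases and is shown because reads inside it carry no information on which copy they came from; it spans 3 exons of Lyz2 between 117280666 and 117278175, is read 5′ to 3′ on the minus strand, and is taken from the GENCODE vM21 transcripts of GRCm38.p6.
Lyz2 and Lyz1: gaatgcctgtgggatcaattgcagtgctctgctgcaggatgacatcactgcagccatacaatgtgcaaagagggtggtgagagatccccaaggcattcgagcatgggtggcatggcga

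Counts for Lyz1 were 38, 20 and 128 in WT and 63, 41 and 19 in MUT, between 0.00301 and 0.0117 of the Lyz2 count of the same sample. Lyz1 was highest in WT replicate 3, as Lyz2 was. Apart from Lyz2 and the overlap of Csf1r, the member transcripts were nearly free of such windows, with 0 shared windows for Adgre1, Cd68, Mrc1, C1qa, C1qb and C1qc and 6 of 5507 for Cd163.

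Mrc1 and Cd163 encode endocytic receptors of resident tissue macrophages, and they differed from each other. Mrc1 (chromosome 2, 14229392 to 14332057, plus strand) measured 119.9, 104 and 148 CPM in WT and 92.3, 104 and 118 CPM in MUT. It ranked the 6 samples in the same order as Csf1r did, and its log2 fold change was -0.25 ± 0.13 (SE) with an adjusted p of 0.998 in edgeR and an exact permutation p of 0.2. Cd163 (chromosome 6, 124304656 to 124330527, plus strand) measured 20.1, 16.9 and 17.8 CPM in WT and 12.4, 23.9 and 26.5 CPM in MUT. The MUT replicates lay on both sides of all WT replicates. Its log2 fold change of 0.20 ± 0.25 (SE) was the only positive value of the 9, with an adjusted p of 0.998 in edgeR, an exact permutation p of 0.6 and a 95% interval from 0.776-fold to 1.70-fold, and it was -0.0067 without MUT replicate 3.

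The samples were ordered alike by most of the macrophage genes. WT replicate 3 was the highest sample for 8 of the 9 genes, all except Cd163, while 26.7% of tested genes had their highest value there. In WT replicate 3 the level was 1.41 times the median of the other 5 samples for Adgre1 and Mrc1, between 1.57 and 1.73 times for the C1q genes, 1.71 times for Cd68 and 1.79 times for Lyz2, against a median of 1.01 times over all tested genes. Csf1r stood out least among the 8, at 249 CPM against at most 206 CPM elsewhere, and Cd163 in that sample was at 0.887 times its median. MUT replicate 1 was the lowest sample for all 9 genes, Cd163 included, and for 16.1% of tested genes. For Lyz2 it was nearly level with WT replicate 2, at 234.9 and 235.5 CPM.

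**Figure D3:**
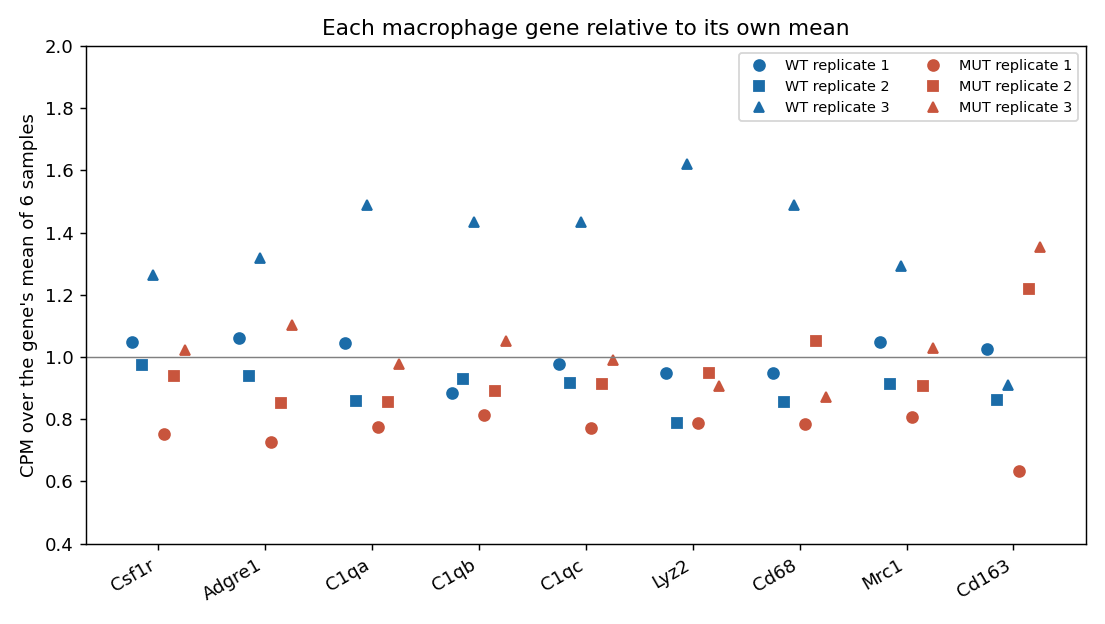
CPM of each macrophage gene divided by its own mean over the 6 samples. Circles, squares and triangles are replicates 1, 2 and 3, blue for WT and red for MUT. WT replicate 3 stands highest for 8 genes, from 1.26 for Csf1r to 1.62 for Lyz2. MUT replicate 1 stands lowest for all 9, nearly level with WT replicate 2 for Lyz2. Cd163 has its highest values in MUT replicates 2 and 3.

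Correlations of log2 CPM across the 6 samples describe the same order. Among the 28 pairs of genes without Cd163, Pearson's r ranged from 0.709 to 0.983, with a median of 0.914. The 8 pairs that include Cd163 had a median r of 0.234 and a highest r of 0.463. Without WT replicate 3 (5 samples), the median fell to 0.699 for the 28 pairs and rose to 0.764 for the 8 pairs with Cd163. All of these correlations share the libraries and their scaling, so they are given as descriptions.

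Ratios within a sample show where the genes parted. Counts of Mrc1 over Csf1r stayed between 0.546 and 0.624, and those of Adgre1 over Csf1r between 0.197 and 0.234. Counts of Lyz2 over Csf1r ran from 1.23 in WT replicate 2 to 1.94 in WT replicate 3, so the high Lyz2 value of that sample exceeded what its Csf1r value showed. Counts of Cd163 over Csf1r were 0.0975, 0.0884 and 0.0717 in WT and 0.0840, 0.129 and 0.132 in MUT. The Cd163 ratio was highest in MUT replicates 2 and 3, but MUT replicate 1 fell inside the WT range, and the highest ratio was 1.84 times the lowest.

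**Figure D4:**
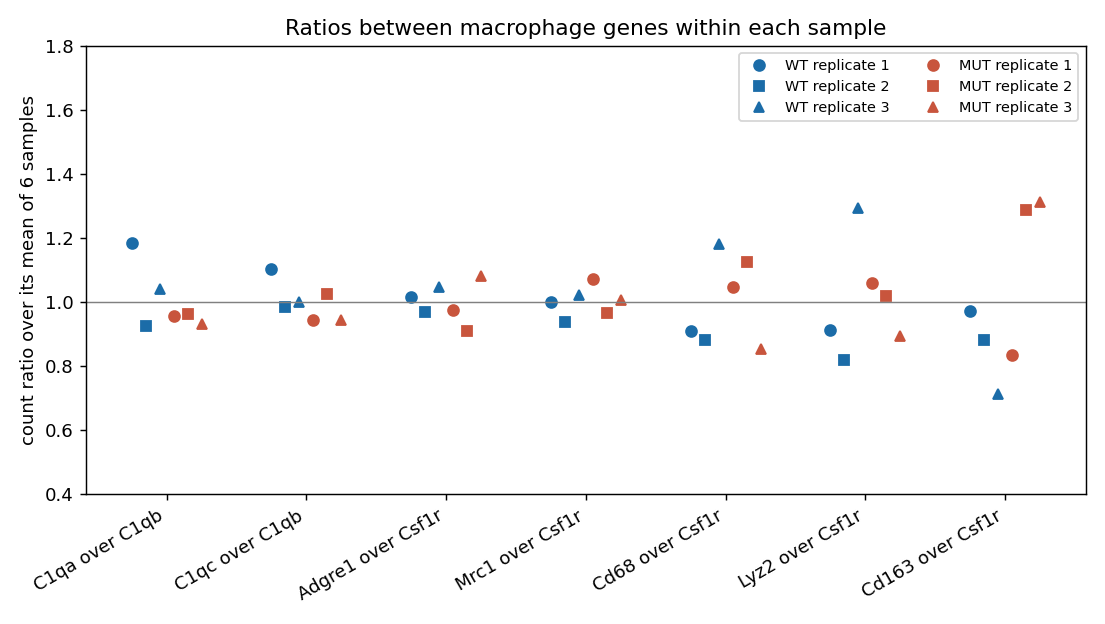
Count ratios between macrophage genes within each sample, each divided by its mean over the 6 samples. Circles, squares and triangles are replicates 1, 2 and 3, blue for WT and red for MUT; the ratios of C1qc over C1qb, Adgre1 over Csf1r and Mrc1 over Csf1r keep within 0.910 and 1.10 of their means, and Cd163 over Csf1r spreads from 0.714 to 1.31.

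WT and MUT samples of the same number had positively correlated deviations from their group means (r = 0.304, 0.156 and 0.395). However, WT replicate 2 and MUT replicate 1 gave 0.326, and no source used here states which mice share a number. The replicate number was fitted as a block only as an alternative. In pairs of the same number, 6 of the 9 genes (Csf1r, Adgre1, Mrc1, C1qa, C1qb and C1qc) were lower in MUT in all 3 pairs. In pair 2 the margin was very small, with MUT at 0.993 times WT for Mrc1 and 0.997 times for C1qa and C1qc. The share of all tested genes lower in all 3 pairs was not computed. Because these genes varied together across samples, the 6 are not separate observations. With the replicate block in edgeR these 6 genes had an unadjusted p under 0.05, from 0.00738 for C1qa to 0.0385 for C1qb, while 4.71% of tested genes had such a p and a lower value in MUT. None passed the adjustment over all genes, where C1qa had the lowest adjusted p at 0.409 (edgeR), and the number of genes called rose from 2 to 13. The log2 fold changes of the block fit were -0.28 ± 0.09 for Csf1r, -0.31 ± 0.10 for Adgre1 and -0.35 ± 0.11 for C1qa (SE), close to those without the block but with smaller errors. Cd163 again lay on the other side, at 0.14 ± 0.20 (SE).

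Bases from the window of 250 before the annotated start of transcription are shown for 4 of the genes, Cd68, C1qb, Mrc1 and Cd163. All 250 are shown except for Mrc1, where 228 are. RefSeq promoter entries were matched for 6 of the 9 genes (Cd68, Cd163, Mrc1, C1qb, C1qc and Lyz2), and bases inside the GENCODE gene were searched for letters but are not printed. Capitals mark the letters GAGGAA, or TTCCTC when the match is on the other strand, a core bound by the myeloid transcription factor PU.1. All sequences run 5′ to 3′ on the gene's own strand, from RefSeq on GRCm38.p6, at chr11:69666171-69666420 (minus strand) for Cd68, chr4:136886201-136886450 (minus strand) for C1qb, chr2:14229164-14229391 (plus strand) for Mrc1 and chr6:124304401-124304650 (plus strand) for Cd163.
Cd68: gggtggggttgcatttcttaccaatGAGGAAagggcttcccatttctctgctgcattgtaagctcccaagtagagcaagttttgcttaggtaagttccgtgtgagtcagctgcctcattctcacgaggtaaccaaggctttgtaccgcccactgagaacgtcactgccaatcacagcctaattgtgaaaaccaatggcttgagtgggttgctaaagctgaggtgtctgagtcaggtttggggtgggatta
C1qb: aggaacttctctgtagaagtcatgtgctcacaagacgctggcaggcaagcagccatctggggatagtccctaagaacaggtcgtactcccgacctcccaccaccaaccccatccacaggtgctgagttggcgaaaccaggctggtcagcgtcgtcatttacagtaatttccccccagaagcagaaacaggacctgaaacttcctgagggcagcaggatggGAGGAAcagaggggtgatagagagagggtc
Mrc1: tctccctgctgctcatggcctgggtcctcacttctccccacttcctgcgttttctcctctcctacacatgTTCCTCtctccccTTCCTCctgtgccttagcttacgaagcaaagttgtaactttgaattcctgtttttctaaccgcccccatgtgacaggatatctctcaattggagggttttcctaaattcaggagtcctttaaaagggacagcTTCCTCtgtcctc
Cd163: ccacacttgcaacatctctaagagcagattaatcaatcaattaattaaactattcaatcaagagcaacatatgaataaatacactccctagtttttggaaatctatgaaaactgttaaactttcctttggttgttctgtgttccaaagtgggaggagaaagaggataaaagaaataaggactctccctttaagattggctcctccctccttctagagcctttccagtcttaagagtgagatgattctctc

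The match lay 225 bases before the start in Cd68, 30 bases before it in C1qb, and 180, 167 and 35 bases before it in Mrc1, where all 3 were on the other strand. Distances are counted from the RefSeq start, which lies beyond the end of the printed Mrc1 bases. C1qc held a match 193 bases before its start, on the other strand, and neither Cd163 nor Lyz2 held any in this window. Lyz2 was highest in WT replicate 3, as were the genes with a match. Any link between these letters and the levels was not tested. In all, 4 of the 6 windows of 250 bases held the letters on either strand, as did 23.3% of 32851 promoter windows of that length. The AP-1 letters TGANTCA, searched on both strands and not overlapping these matches, occurred 149 and 24 bases before the start of Cd68 and in none of the other 5, against 6.75% of all promoters.

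Genes of the macrophage outside the 9 were read from lists chosen by function. Of 24 further macrophage genes, 23 had a lower fitted value in MUT, with a median log2 fold change of -0.27, 21 were highest in WT replicate 3, and 0 were called in edgeR (2 at an unadjusted p under 0.05, Ly86 and Cybb). Without WT replicate 3, 17 of the 24 had a lower fitted value, with a median of -0.09. Their summed level was 798, 727 and 1126 CPM in WT and 635, 748 and 804 CPM in MUT, with the same samples at both ends as for the 9 genes. The highest levels per length were those of Ctss, a lysosomal protease gene, at 71.3 RPKM, Fcer1g, the common Fc receptor chain, at 32.6 RPKM and Cd14, a co-receptor for bacterial lipopolysaccharide, at 28.6 RPKM. Mertk, the receptor gene for uptake of apoptotic cells, was the only gene of this list whose groups did not overlap. It measured 17.4, 16.6 and 19.0 CPM in WT and 15.9, 14.5 and 15.6 CPM in MUT. Its log2 fold change was -0.20 ± 0.11 (SE), with an adjusted p of 0.998 in edgeR. Every MUT sample lay below every WT sample in 3.0% of all tested genes, so 1 such gene of 24 is near that share.

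The list named CSF1 receptor axis holds ligands and signalling genes of this receptor together with Csf2ra and Csf2rb, which encode the receptor for another myeloid growth factor, GM-CSF. Of its 8 genes 7 were tested and 0 were called in edgeR (1 at an unadjusted p under 0.05), with a median log2 fold change of -0.24, or -0.07 without WT replicate 3. Tyrobp, the adaptor DAP12, was the highest at 49.7 RPKM and was followed by Csf2ra at 13.3 RPKM. The ligand gene Csf1 stood at 1.95 RPKM and the other ligand gene, Il34, at 0.168 RPKM, too low to be tested. Of 11 myeloid transcription factor genes, among them Cebpa and Irf5, 8 had a lower fitted value in MUT (6 without WT replicate 3) and 0 were called (1 at an unadjusted p under 0.05, Spi1, which encodes PU.1, with a log2 fold change of -0.40 ± 0.18, SE, in edgeR).

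Beyond C1q, the complement genes gave less of a common direction. Of 12 other complement genes, led by Serping1, C3 and C3ar1, 8 had a lower and 4 a higher fitted value in MUT, with a median log2 fold change of -0.07 (0.09 without WT replicate 3) and 0 called in edgeR (0 at an unadjusted p under 0.05). Lysosomal genes that most cells use, led by Psap, Lamp1 and Ctsd, were all highest in WT replicate 3 (10 of 10), at a median of 1.21 times the median of the other samples, beside 1.71 times for Cd68 and 1.79 times for Lyz2. Genes related to the 9 in sequence, such as C1ql1, Adgre5 and Pdgfra, summed to between 92.7 and 105.5 CPM, with 1 of 9 highest in WT replicate 3.

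The 10 genes outside the 9 whose log2 CPM was most like the summed level of the 9 across the 6 samples were Zfp36, Unc93b1, Tor4a, Marcks, Cxcl16, Clec5a, Cyp4f18, Hcls1, Nol7 and RP24-417N21.2, with Pearson's r from 0.986 to 0.995. Among 16672 genes with a mean of at least 1 CPM, 315 (1.89%) had an r of at least 0.9, and 14 of the 24 further macrophage genes did. Of the 9 genes themselves, which are part of the sum, 8 had such an r and Cd163 had 0.274.

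Levels of other cell types were read in the same libraries. The summed A_undiff marker list, led by Dazl, Mcam and Ddx4, was lowest in WT replicate 3, the sample with the highest macrophage level. The sum was 3176 CPM there, against 3284 to 3661 CPM in the other 5 samples. Its genes were at a median of 0.87 times the median of those 5 samples, but not all were lower. Dazl was at 1.04 times, Id4 at 1.03 times and Nanos2 at 1.14 times. Lin28a in that list and Stra8 among the differentiating markers were higher in every MUT sample (adjusted p 0.998 for both in edgeR), as were 4.69% of tested genes. Hras was at 60.7 ± 4.21 CPM in WT and 66.7 ± 4.97 CPM in MUT, and tdTomato at 61.9 ± 4.99 and 61.4 ± 7.64 CPM (SD, n = 3 each); the level of Hras does not check a point mutation. Markers of differentiating germ cells, led by Prm1, Tnp1 and Stra8, were at 690.5 to 993 CPM and highest in WT replicate 3, but the list held opposite directions. Its spermatid genes went with the macrophage genes: Prm1, a protamine of sperm chromatin, measured 240.0, 183 and 308 CPM in WT and 114, 137 and 227 CPM in MUT, and its r with the summed macrophage level was 0.858 over the 6 samples. Tnp1, a transition protein of spermatids, had an r of 0.777 and a log2 fold change of -0.59 ± 0.26 (SE), with an adjusted p of 0.998 in edgeR and 0.0794 with the replicate block. Kit, a receptor of differentiating spermatogonia, had a log2 fold change of 0.36 and an r of -0.543. The part of spermatid RNA in the macrophage values was not tested.

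Other blood cell markers followed the macrophage genes in part. MHC class II and dendritic cell genes, led by Cd74, H2-Eb1 and H2-Aa, summed to 1198, 1379 and 1837 CPM in WT and 819, 823 and 1569 CPM in MUT. MUT replicates 1 and 2 were the lowest there and lay close together, whereas MUT replicate 1 was lowest by itself in the summed level of the macrophage genes. B and plasma cell genes, led by Igkc, Ighm and Jchain, summed to 77.0, 217 and 327 CPM in WT and 37.2, 26.9 and 89.8 CPM in MUT. The 2 genes called over the whole table, Igkv4-91 and Ighv3-6, are immunoglobulin variable segments and were lower in MUT. Cd4, which macrophages can also make, was lower in every MUT sample (adjusted p 0.998 in edgeR), as were 3.0% of tested genes. T and NK cell genes, led by Cd4, Cd3e and Cd3d, were lowest in MUT replicate 1 (9.44 CPM) and highest in WT replicate 3. Of the T cell genes, Cd3e had 62, 52 and 77 counts in WT and 63, 68 and 61 in MUT. Cd3d had 8, 10 and 9 counts in WT and 3, 10 and 7 in MUT. Cd3g had 0 counts in each WT sample and 2, 0 and 3 in MUT. Of the neutrophil genes, which would be another source of lysozyme, Retnlg had 0 counts in every sample and S100a8, S100a9, Ly6g and Mmp8 never exceeded 0.0437 CPM, while the receptor gene Csf3r stood at 4.28 to 7.47 CPM. Counts of 0 allow a level of up to 0.127 to 0.132 CPM at these depths.

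Somatic cell markers of the testis moved differently, except in part the peritubular myoid genes. Leydig cell genes, led by Cyp17a1, Star and Insl3, summed to 67.3 CPM in MUT replicate 3 and 12.9 to 21.1 CPM elsewhere. Sertoli cell genes, led by Clu, Rhox5 and Cldn11, lay between 59.1 and 134 CPM with the highest sum in WT replicate 3. Peritubular myoid genes, led by Actg2, Acta2 and Des, lay between 19.5 and 33.5 CPM. Their sum was lowest in MUT replicate 1 and highest in WT replicate 3, as for the macrophage genes. MUT replicates 2 and 3 lay close to these ends, at 19.8 and 33.4 CPM. Endothelial genes, led by Cdh5, Cldn5 and Tek, lay between 45.9 and 62.7 CPM. Erythroid and platelet genes, led by Alas2, Itga2b and Hbb-bs, lay between 4.46 and 6.42 CPM. None of these genes was called in edgeR (1 at an unadjusted p under 0.05, Wt1). Wt1 and Gata4, Sertoli cell transcription factor genes, had all 3 MUT samples above the 3 WT samples, as did 4.69% of tested genes. Their direction was opposite to that of the macrophage genes. The part of other cell types in the macrophage values was not tested.

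**Figure D5:**
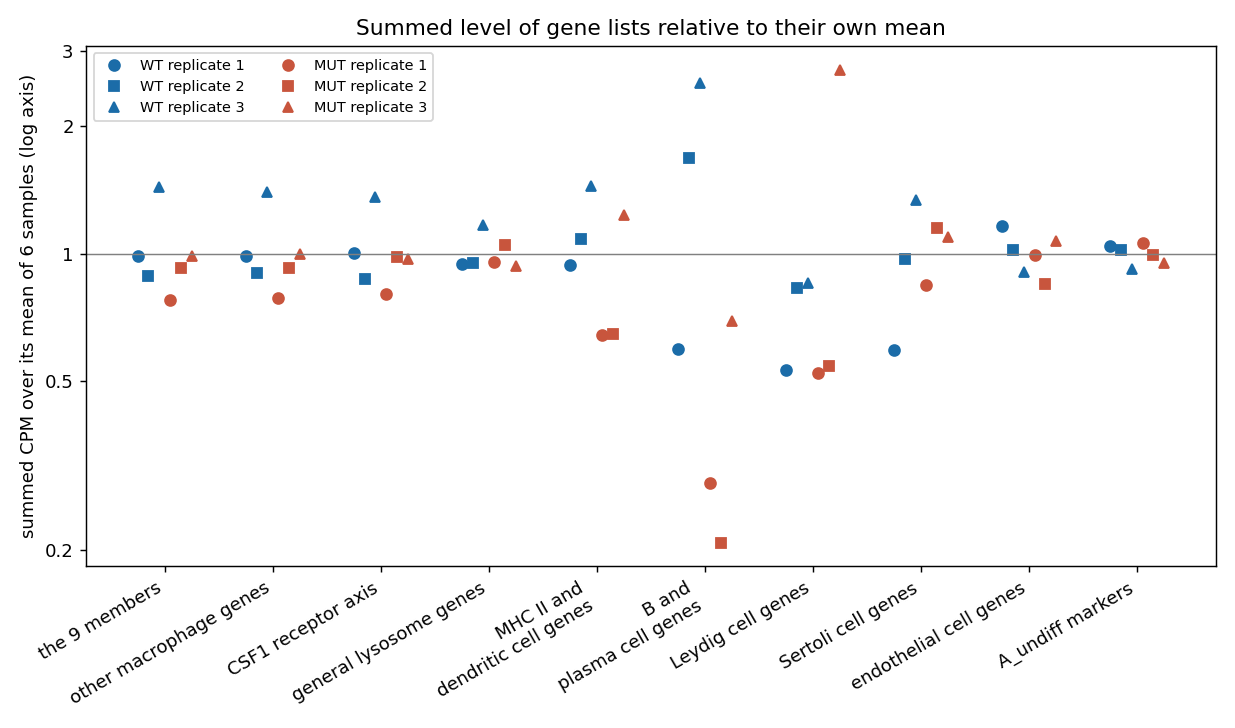
Summed CPM of gene lists in each sample, divided by the list's mean over the 6 samples (log axis). Circles, squares and triangles are replicates 1, 2 and 3, blue for WT and red for MUT; the 9 macrophage genes (the 9 members), the further macrophage genes and the CSF1 receptor axis are all lowest in MUT replicate 1 and highest in WT replicate 3, from 0.778 in MUT replicate 1 to 1.43 in WT replicate 3 for the 9, whereas the A_undiff markers stay above 0.921 throughout.

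Sequencing depth was even, with 22729292 to 23550433 counts per library, and counts for the 9 genes ran from 284 for Cd163 in MUT replicate 1 to 11441 for Lyz2 in WT replicate 3. Counting error alone would give a coefficient of variation between 1.20% for Lyz2 and 4.68% for Cd163, and the observed values over the 6 samples were between 16.7% for Csf1r and 31.3% for Lyz2.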

How the data were processed

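RNA-seq was analysed in 6 samples, grouped as WT or MUT by their labels. The deposited values are raw counts of fragments per gene name, which the authors made with featureCounts 1.6.2 on GRCm38.p6 (GENCODE vM17, plus tdTomato). The counting was unstranded and dropped ambiguous and multi-mapping fragments, so that fragments of overlapping genes or near-identical copies are lost. STAR is named in the submitters' processing notes.

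Counts were joined by gene name. In R 4.3.3, edgeR 4.0.16 applied TMM scaling, filterByExpr (19656 genes, all 9 macrophage genes included) and the quasi-likelihood test of genotype, with Benjamini-Hochberg adjustment over all tested genes at an FDR of 0.1; it was tested on simulated data. CPM and RPKM use TMM-scaled library sizes. Correlations use log2 CPM with a prior count of 2. DESeq2 1.42.0, limma 3.58.1 voom, other scalings and filters, the replicate block and each sample left out were alternatives, and leaving samples out for the gene lists was added after seeing the data. Figures were drawn with matplotlib 3.10.9.

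The 9 genes and all lists were chosen with earlier results of these data known. Named genes were the 9, Hras and tdTomato, the 3 highest of each list by RPKM, listed genes that were called or did not overlap between groups, macrophage or complement genes at 0 in every sample (there were 0), and the 10 genes most like the summed 9. Results for some genes that this rule names are not reported here. Other genes were named after their values were seen.

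Same-numbered samples deviated together from their group means (r = 0.304, 0.156 and 0.395 over 10583 genes of at least 10 CPM on average), although WT replicate 2 and MUT replicate 1 gave 0.326. WT mice were littermates of MUT mice, but no source used here states which mice share a number. The p-values measure the spread between these samples. Counting intervals and floors leave out other error.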

Additional observations from a re-analysis of the deposited data

How the results depend on the processing

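None of the 9 macrophage genes was called under any of the 15 alternatives, and of 126 recomputed log2 fold changes 122 kept their direction. The other 4 reversed: without WT replicate 3, Cd68 was at 0.0020, C1qb at 0.0195 and Lyz2 at 0.0199, and without MUT replicate 3, Cd163 was at -0.0067; the cause was not tested. Leaving out each sample in turn gave ranges of -0.44 to 0.0020 for Cd68, -0.37 to 0.0195 for C1qb, -0.56 to 0.0199 for Lyz2 and -0.0067 to 0.46 for Cd163. The summed level in MUT over WT stayed between 0.7409 and 0.9586 when each sample was left out, and between 0.798 and 0.825 under other scalings, as a sum of RPKM, and without Lyz2 or without Cd68 and Lyz2.

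The number of genes called over the whole table was 2. It was 9 in DESeq2, 4 in limma voom, 5 without a filter, 0 with at least 10 counts in every sample (479 at an unadjusted p under 0.05 in edgeR) and 1 at an FDR of 0.05. With samples left out in turn it ranged from 0 (without MUT replicate 2, 292 at an unadjusted p under 0.05 in edgeR) to 6 (without MUT replicate 3). The replicate block raised it to 13 with edgeR (12 lower in MUT) and to 55 with DESeq2 (52 lower); the cause was not tested. The block changed no call among the 9 genes. Unadjusted p-values under 0.05 numbered 0 of 9 in edgeR, 1 in DESeq2, 6 with the replicate block in edgeR and 5 with it in DESeq2. In edgeR they numbered 4 without a filter, 5 without WT replicate 2, 4 without MUT replicate 3, 1 without MUT replicate 1 and 0 under the other alternatives without the block.

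Levels of 9 genes in 3 samples a group allow the 95% intervals given. For Lyz2 and Cd163 these span from 0.543-fold to 1.14-fold and from 0.776-fold to 1.70-fold. Each interval is for a single gene, unadjusted for the number of genes tested, and holds differences that the data do not exclude. Such an interval is not a limit of detection, since calls were adjusted over all tested genes.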
